A study of Mus musculus with 14 samples.

Results

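CD24highCD49fmed cells, a luminal gate of the mouse mammary gland, were compared with Thy-1-CD24medCD49fhigh cells, the basal gate that lacks the surface protein Thy-1. They were chosen because each had the most cell cycle RNA of its lineage in these arrays, so that high proliferation RNA within a lineage is how they were picked and not a result. They are 6 of the 14 arrays of the series, 3 of each population. All cells came from mammary glands of virgin female C57BL/6 mice aged 6 to 8 weeks, with no treatment given in the labels, and were sorted and sorted again by CD24, CD49f and Thy-1, with CD45, CD31 and Ter119 stained alongside. The study's methods also list an antibody to CD140α, a fibroblast marker, with those 3. The remaining arrays are 2 of CD24medCD49f-/low cells, the other luminal gate, 3 of CD24medCD49fmed cells, read here as the myoepithelial gate, and 3 of Thy-1+CD24medCD49fhigh cells. The study's text writes the myoepithelial gate as CD24lowCD49fmed, so its name and the sample titles differ in CD24. Each RNA was hybridised to an Affymetrix Mouse Genome 430 2.0 array. Each gate is a mixture of cells, and fewer cells of a type cannot be told apart from less RNA per cell. The labels do not say that replicates came from separate animals, so p-values measure only the spread between these arrays, which may be technical.

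The mammary duct is a bilayer. Luminal cells line the lumen, are joined by tight junctions, read estrogen and progesterone and give rise to milk-secreting alveoli, while basal cells rest on the basement membrane that they help to lay down, contract under oxytocin and hold cells that can regrow a gland on transplantation. Both layers contain dividing cells. In any dividing cell DNA is copied in S phase with the help of the minichromosome maintenance (MCM) helicase, and kinesins, kinetochore proteins and condensins are then made for mitosis, largely from genes that are switched on together in G2.

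Values are log2 signals centred per probe set, with 0 at the average over 14 arrays, and they do not compare one gene's level with another's. A difference is always CD24highCD49fmed minus Thy-1-CD24medCD49fhigh. Of 7190 rows tested, 2641 (36.7%) passed an adjusted p under 0.05, 1517 higher in CD24highCD49fmed cells (21.1%) and 1124 lower (15.6%). These shares are the background for every list below, and in a table kept for genes that vary between arrays they are large. The median difference over all rows was 0.256, and with each array centred on its median it was 0.026 and the split became 1093 higher and 1376 lower (1071 and 1186 after quantile normalization). The CD24highCD49fmed arrays correlated with each other at 0.867 to 0.927 and the Thy-1-CD24medCD49fhigh arrays at 0.189 to 0.48. These correlations are of centred values, so they also rise with a population's distance from the average of 14 arrays. They do not measure reproducibility alone. The median SD between arrays over all rows was 0.21 in CD24highCD49fmed and 0.45 in Thy-1-CD24medCD49fhigh cells. Thy-1-CD24medCD49fhigh replicate 2 was the lowest of its group for 89 of 112 measured basal genes and replicate 3 the highest for 61 of 109 luminal genes. CD24highCD49fmed replicate 1 was the lowest of its group for 101 of 112 proliferation genes. Thy-1-CD24medCD49fhigh replicate 1 was also most often the lowest of its group, for 53 of these 112 against 30 and 29 for replicates 2 and 3. The part of these shifts in the results was not tested.

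Lineage markers separated the gates as labelled. Krt14, a keratin of basal cells, was at -2.40, -2.75 and -2.13 in the CD24highCD49fmed arrays and at 1.67, -0.05 and 1.85 in the Thy-1-CD24medCD49fhigh arrays, a difference of -3.58 (SE 0.49, adjusted p = 0.000968). Thy-1-CD24medCD49fhigh replicate 2 lay far below the other two, as it did for Krt5 (2.24, -0.57 and 2.57) and Krt17 (2.78, -0.22 and 2.79), yet above all CD24highCD49fmed arrays. Trp63, the master regulator of basal identity, had no such gap. Its values were 1.75, 1.38 and 1.38 in Thy-1-CD24medCD49fhigh arrays and -1.63, -2.90 and -2.61 in CD24highCD49fmed arrays (difference -3.88, SE 0.36, 14.7-fold). Myh11, smooth muscle myosin, was likewise even, at 1.22, 1.31 and 1.27 against -2.27, -2.22 and -1.91. Acta2, the actin of contractile myoepithelium, fell by 3.21 (SE 0.32).

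Krt18, the luminal keratin, was at 1.44, 1.32 and 1.43 in CD24highCD49fmed arrays and at -0.85, -0.80 and 0.43 in Thy-1-CD24medCD49fhigh arrays (1.81, SE 0.37, adjusted p = 0.00593). Krt19 was at 1.78, 1.65 and 1.83 against -1.28, -1.79 and 1.15. In both keratins Thy-1-CD24medCD49fhigh replicate 3 stood above its group, and the call for Krt19 (2.40, SE 0.67, adjusted p = 0.023) was lost without any 1 of the CD24highCD49fmed arrays or without Thy-1-CD24medCD49fhigh replicate 1. Krt7 (3.17, SE 0.36) and Krt8 (1.26, SE 0.28) were higher as well. Of 6 luminal keratins measured, 4 were higher and 1, Krt23, was lower (-1.90, SE 0.43). Cd24a, Itga6 and Gata3 were not analysed here.

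**Figure D1:**
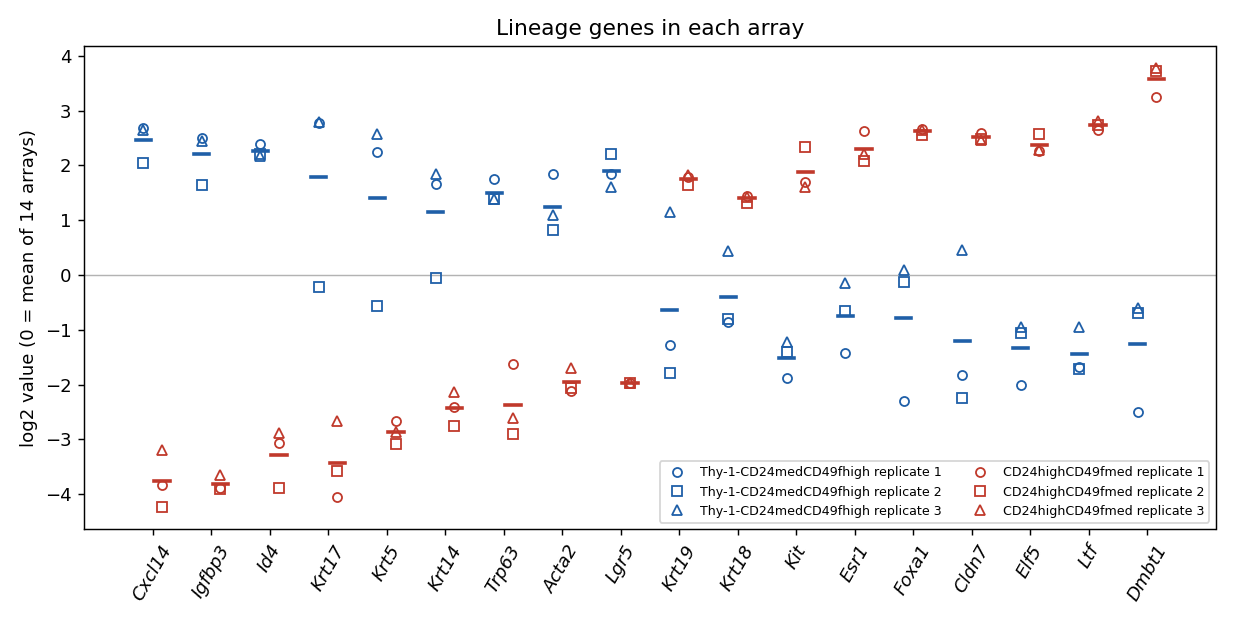
Each symbol is the log2 value of a gene in 1 array (0 is the mean of 14 arrays, vertical axis), blue for Thy-1-CD24medCD49fhigh and red for CD24highCD49fmed, with bars at the means of 3 arrays. The colours do not overlap for any of the 18 genes shown, and replicate 2 of the blue group lies low for Krt17, Krt5 and Krt14 while replicate 3 lies high for Krt19 and Cldn7.

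Among named genes the largest falls were those of secreted factors, matrix proteins and several other kinds of gene. Cxcl14, a chemokine gene, was at -3.83, -4.24 and -3.20 in CD24highCD49fmed arrays and at 2.69, 2.05 and 2.65 in Thy-1-CD24medCD49fhigh arrays, which is 74.4-fold lower in CD24highCD49fmed cells (-6.22, SE 0.34, adjusted p = 2.96e-05). Igfbp3, which binds insulin-like growth factors, followed at -6.01 (SE 0.30) and Postn, the matricellular protein periostin, at -5.90 (SE 0.43). Then came Antxr1 (-5.77), a collagen-binding receptor, Moxd1 (-5.68), a monooxygenase-like gene, Actg2 (-5.64), an actin of smooth muscle, Id4 (-5.54), an inhibitor of basic helix-loop-helix factors, Col4a2 (-5.35), a chain of basement membrane collagen, Scn7a (-5.32), a sodium channel gene, and Krt17 (-5.22). Genes were named here only where the 6 arrays did not overlap, which held for 3913 of all rows (54.4%).

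The basal genes were read by role. Across 5 lists of basal genes 112 of 138 members were measured, and 83 were lower in CD24highCD49fmed cells and 2 higher, with a median difference of -2.37. Of 22 contractile genes 19 were lower (median -2.70), among them Myl9 (-4.57, SE 0.87), Cnn1 (-4.48, SE 0.59) and Mylk (-4.26, SE 0.33), the light chain, the calponin and the kinase of smooth muscle contraction. Mylk was nearly level across the CD24highCD49fmed arrays, at -2.46, -2.47 and -2.48.

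Of 24 genes of basement membrane and matrix 22 were lower (median -2.49). Col4a1 (-4.97, SE 0.34) and Lamb1 (-4.10, SE 0.28) encode chains of collagen IV and laminin, Sparc (-5.0, SE 0.42) a collagen-binding glycoprotein and Mmp2 (-3.73, SE 0.37) a protease of basement membrane. The exception was Npnt, nephronectin, an integrin ligand, which was higher in CD24highCD49fmed cells (1.83, 1.36 and 1.45 against -0.70, -1.13 and 0.07; 2.13, SE 0.35). That call was lost when each probe set was kept on its own row.

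Of 21 basal keratin and adhesion genes 13 were lower (median -1.34), including Col17a1, the collagen of hemidesmosomes, at -4.83 (SE 0.29) and Krt15 at -3.83 (SE 0.55). Of 19 basal transcription factors 10 were lower (median -1.30). After Id4 and Trp63 these were led by Snai2 (-4.18, SE 0.34), a repressor of epithelial genes, Irx4 (-3.48, SE 0.62) and Egr2 (-2.99, SE 0.27). Id4 was at 2.39, 2.21 and 2.17 in Thy-1-CD24medCD49fhigh arrays and at -3.07, -3.88 and -2.89 in CD24highCD49fmed arrays, and in it replicate 2 of the basal group did not stand apart. Of 26 secreted basal factors 19 were lower (median -2.21), with Fst, the activin antagonist follistatin, at -5.15 (SE 0.38) and Cxcl12, a chemokine that draws leukocytes, at -3.64 (SE 0.43). Ptn, pleiotrophin, went the other way at 1.68 (SE 0.31).

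The largest rises included genes of mucosal defence and transport. Dmbt1, a mucosal scavenger glycoprotein, was at 3.24, 3.72 and 3.78 in CD24highCD49fmed arrays and at -2.50, -0.69 and -0.60 in Thy-1-CD24medCD49fhigh arrays, 28.8-fold higher (4.85, SE 0.50, adjusted p = 0.000272). Slc5a5, the sodium iodide symporter that carries iodide into milk, rose by 4.25 (SE 0.44) and Ltf, the iron-binding milk protein lactoferrin, by 4.18 (SE 0.29). Ltf varied little within either population, with 2.65, 2.73 and 2.82 against -1.68, -1.71 and -0.95. The rest of the 10 were Tlcd4 (4.11), Cdo1 (3.91), which breaks down cysteine, Agtr1a (3.81), the angiotensin II receptor, the claudin genes Cldn8 (3.79) and Cldn7 (3.71), Fcgbp (3.76), a mucus protein, and Olfm4 (3.73), a marker of intestinal stem cells. Olfm4 was at 4.34 in CD24highCD49fmed replicate 1 and at 1.85 and 1.93 in the other arrays of that population.

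Across 5 lists of luminal genes 109 of 144 members were measured, and 75 were higher in CD24highCD49fmed cells and 8 lower, with a median of 1.63. Of 36 genes of tight junctions and apical polarity 31 were higher (median 1.63). After the claudins these were led by Mal2 (3.65, SE 0.38), which carries cargo to the apical membrane, Prom1 (3.01, SE 0.38), which encodes CD133 on apical protrusions, and Cldn4 (2.86, SE 0.49). Cldn7 was at 2.59, 2.49 and 2.46 against -1.82, -2.24 and 0.46, so that Thy-1-CD24medCD49fhigh replicate 3 was again the highest basal array.

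Of 27 luminal transcription factors 16 were higher (median 1.61). Elf5, the driver of alveolar fate, was at 2.26, 2.58 and 2.28 against -2.0, -1.06 and -0.95, a 13.1-fold difference (3.71, SE 0.33, adjusted p = 0.000156). It was higher still in the other luminal gate, at 3.54 and 3.39 in the CD24medCD49f-/low arrays, so that CD24highCD49fmed cells lay between the basal and the other luminal cells. Ehf, another epithelial ETS factor, was higher by 3.22 (SE 0.36) and Myb by 2.87 (SE 0.25). Lower were Mycn (-2.20, SE 0.30), Tfap2c (-1.96, SE 0.30) and Nr3c1, the glucocorticoid receptor (-0.81, SE 0.27, adjusted p = 0.046), the last of which lost its call in 8 of the 12 alternative fits.

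Of 16 hormone-sensing genes 12 were higher and 1 lower (median 1.87). Esr1, the estrogen receptor, was at 2.62, 2.08 and 2.20 against -1.42, -0.66 and -0.14 (3.04, SE 0.36), and Pgr, the progesterone receptor, was higher by 2.72 (SE 0.28). Foxa1, the pioneer factor of estrogen receptor binding, rose by 3.40 (SE 0.57) and Tbx3 by 1.38 (SE 0.28). Cited1 was high in 1 basal array, at -2.23, -2.24 and 1.29 in Thy-1-CD24medCD49fhigh cells against 2.96, 2.48 and 2.24. Gfra1, a receptor for glial-derived neurotrophic factor, was the exception at -2.15 (SE 0.27). Of 29 progenitor and alveolar genes 17 were higher, 3 lower and 9 did not pass (median 2.13). Kit, the receptor of luminal progenitors, was at 1.70, 2.34 and 1.60 against -1.88, -1.41 and -1.23 (3.39, SE 0.31), Wfdc2 was higher by 3.32 (SE 0.62) and Cxcl15 by 3.27 (SE 0.45). Slpi, a protease inhibitor of secretions (-3.30, SE 0.66), Itgb3, the CD61 integrin used to gate luminal progenitors (-1.70, SE 0.39), and Lcn2 (-1.01, SE 0.31) were lower instead. Slpi and Itgb3 were lowest in replicate 2 among the Thy-1-CD24medCD49fhigh arrays. Among the genes that did not pass were the milk protein genes Csn2 (0.86, SE 0.51, adjusted p = 0.209) and Lalba (0.31, SE 0.26, adjusted p = 0.357).

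Most progenitor and alveolar genes had a higher mean in the other luminal gate, CD24medCD49f-/low, than in CD24highCD49fmed cells. Kit was at 3.24 and 3.30 in the CD24medCD49f-/low arrays, above all 3 CD24highCD49fmed arrays, and the means were 3.09 in CD24medCD49f-/low against 1.47 in CD24highCD49fmed cells for Aldh1a3, an enzyme of retinoic acid synthesis, and 2.64 against 1.59 for Cd14. Over the list CD24highCD49fmed minus CD24medCD49f-/low cells had a median of -0.77, with 9 of 29 genes above 0. Over the hormone-sensing list that median was 0.73, with 15 of 16 above 0 and 11 in which every CD24highCD49fmed array exceeded both CD24medCD49f-/low arrays, among them Foxa1 (mean 2.62 in CD24highCD49fmed and 1.48 in CD24medCD49f-/low cells) and Esr1 (2.30 and 1.42). Over all rows that median was 0.14, with 4514 of 7190 above 0. Every CD24highCD49fmed array exceeded both CD24medCD49f-/low arrays in 32.2% of all rows. The difference between the luminal gates in these lists was not tested.

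Defence genes were mixed, with 7 of 17 higher, 3 lower and a median of -0.15. Beside Dmbt1, Ltf and Wfdc2 the higher genes included Cd14, the endotoxin co-receptor (2.60, SE 0.33), and Defb1, a defensin (2.04, SE 0.55). Ptx3, a soluble pattern receptor, was lower with Slpi and Lcn2 (-2.65, SE 0.41).

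**Figure D2:**
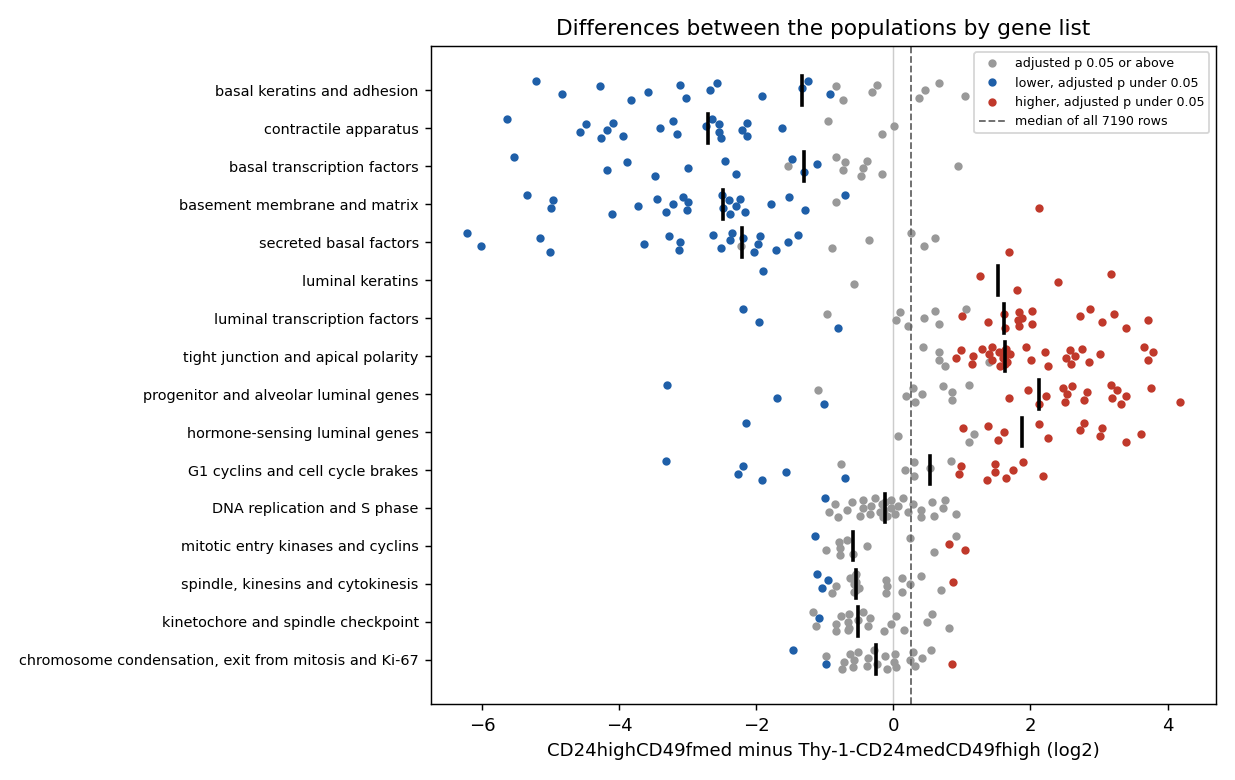
Each point is 1 gene placed by its difference between CD24highCD49fmed and Thy-1-CD24medCD49fhigh cells (log2, horizontal axis) in the list it belongs to (rows), coloured by its limma call, with a bar at the list's median and a dashed line at the median of all rows, 0.256. Basal lists spread down to -6.22 and luminal lists up to 4.18, whereas the proliferation lists lie between -1.47 and 1.05.

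Signalling genes were found on both sides. Among Wnt genes 22 of 33 were lower in CD24highCD49fmed cells and 3 higher (median -1.53). Lgr5, the R-spondin receptor that marks stem cells in several epithelia, was at -1.98, -1.97 and -1.98 against 1.84, 2.21 and 1.61, a 14.6-fold difference (-3.86, SE 0.26, adjusted p = 5.04e-05). In the basal lineage Lgr5 was not particular to the Thy-1- gate, since CD24medCD49fmed arrays were at 0.98, 2.47 and 1.80. Next to it were secreted Wnt inhibitors, with Wif1 at -5.01 (SE 0.28), Dkk3 at -3.27 (SE 0.35) and Sfrp1 at -2.51 (SE 0.36), together with Nkd2 (-2.96, SE 0.28), an intracellular inhibitor, and Procr (-2.27, SE 0.37), a Wnt target. The 3 higher genes were the receptor Fzd4 (2.05, SE 0.29), the ligand Wnt4 (1.53, SE 0.28), which acts downstream of progesterone, and the receptor Fzd6 (0.87, SE 0.23). Fzd6 lost its call under both rescalings of the arrays. Receptors of the same family were lower as well, with Fzd7 at -2.45 (SE 0.26) and Fzd1 at -1.82 (SE 0.27).

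Of 17 Notch genes 2 were lower and 5 higher, 41.2% called, which is near the 36.7% of all rows. The lower genes were the ligands Dll1, at 2.14, 0.93 and 1.35 in Thy-1-CD24medCD49fhigh arrays against -2.52, -2.49 and -2.43 (-3.95, SE 0.33), and Jag2 (-2.36, SE 0.42). The higher genes were the receptors Notch3 (2.39, SE 0.48) and Notch1 (0.94, SE 0.30), the target Hey1 (1.63, SE 0.27), and Dtx3l (1.66, SE 0.24) and Dtx4 (1.63, SE 0.33), members of the deltex family of Notch regulators. Notch1 was called neither after median centring nor after quantile normalization, and the median of the list was 0.15 as deposited, -0.08 after centring and 0.25 after quantile normalization.

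Among 36 genes of EGF, FGF and IGF signalling 19 were lower and 8 higher (median -1.05). Binding proteins of insulin-like growth factors led the lower genes after Igfbp3, with Igfbp4 at -3.13 (SE 0.43), Igfbp7 at -3.06 (SE 0.25) and Igfbp2 at -2.63 (SE 0.71). Igfbp2 was uneven in Thy-1-CD24medCD49fhigh arrays, at 1.43, -0.78 and 2.55, and lost its call without any CD24highCD49fmed array. Hgf, a ligand made by mesenchyme and the activator of Met, was at -2.98 (SE 0.33). Higher were the neuregulin receptor Erbb3 (2.60, SE 0.34) with the ligands Nrg4 (2.21, SE 0.33) and Btc (1.88, SE 0.34), then Fgf13 (1.94, SE 0.36) and Igf2r (1.57, SE 0.38), which clears insulin-like growth factor from the surface. Receptors and ligands lay on both sides, since the receptor Egfr was lower (-1.93, SE 0.25), as was the ligand Fgf2 (-2.42, SE 0.36), and the receptor Met was higher (1.28, SE 0.24).

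Aldh1a1, an enzyme of retinoic acid synthesis, was lower in CD24highCD49fmed cells (-3.13, SE 0.26). Rarres2 differed by -0.60 (SE 0.24, adjusted p = 0.0763) and Thy1, which encodes the antigen of the gate, by -0.55 (SE 0.28, adjusted p = 0.154). Thy1 was at -1.19, -0.93 and -0.74 against -0.77, -0.10 and -0.36, and the populations overlapped.

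Marker genes of other cell types were read beside these differences. Of 16 fibroblast genes 10 were lower in CD24highCD49fmed cells and 1 higher (median -1.68), and their per-array medians were -1.32 to -1.16 against 0.08 to 0.55. Postn, Col14a1 (-4.19, SE 0.37), Col3a1 (-3.38, SE 0.38), Col5a1 (-2.99, SE 0.26) and Dcn (-2.34, SE 0.46) were lower, Col6a3 was higher (2.91, SE 0.35), and Col1a1, the main collagen of fibroblasts, was at -1.06, -1.08 and -0.87 against -0.65, 0.00 and -0.13 (-0.75, SE 0.27, adjusted p = 0.0581). Pdgfra, which encodes CD140α, was at -0.99, -0.71 and -0.76 against -0.22, 0.75 and -0.06 (-0.97, SE 0.31, adjusted p = 0.0394). Whether this RNA came from basal cells or from fibroblasts in the gate was not tested.

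Of 10 Schwann cell genes 6 were lower and 2 higher (median -1.0), with Pmp22 at -4.20 (SE 0.27) and Mbp at -2.10 (SE 0.35). Their per-array medians were -1.06 to -0.50 in CD24highCD49fmed arrays and -0.10 to 0.42 in Thy-1-CD24medCD49fhigh arrays. Of 7 myeloid genes 3 were lower, by 0.98 to 1.34 on the log2 scale, with per-array medians of -0.72 to -0.62 against -0.27 to 0.04. Of 20 endothelial genes 1, Plvap, was lower (-1.43, SE 0.43), and Pecam1, which encodes CD31, was at 1.19 in Thy-1-CD24medCD49fhigh replicate 1 and between -0.92 and -0.62 in the other 5 arrays. Of 11 pericyte genes 2 were lower and 1, Notch3, higher, and Pdgfrb fell by 2.32 (SE 0.25). Of 14 cornified keratinocyte genes 3 were lower, Krt10 among them (-0.74, 1.94 and 1.78 in Thy-1-CD24medCD49fhigh arrays). Of 6 adipocyte genes 1, Lep, was lower (-1.54, SE 0.29), and neither of 2 lymphoid genes passed. The hemoglobin gene Hba-a2 was at -3.11 in Thy-1-CD24medCD49fhigh replicate 2 and between -0.15 and 0.92 in the other arrays. Because values are centred, whether any such marker was absent could not be read, and the part of other cells in the basal gene lists was not tested.

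Genes that set the pace of G1 were divided between the populations. Of 21 G1 cyclins and cell cycle brakes 9 were higher in CD24highCD49fmed cells and 6 lower, 71.4% against 36.7% of all rows. Entry into the cycle uses D cyclins, which drive Cdk4 and Cdk6 to inactivate the retinoblastoma protein. Ccnd2 was at -2.24, -2.12 and -2.05 in CD24highCD49fmed arrays and at 1.5, 0.86 and 1.20 in Thy-1-CD24medCD49fhigh arrays, 9.99-fold lower (-3.32, SE 0.26, adjusted p = 9.89e-05). Ccnd1 ran the other way, at 0.99, 1.24 and 1.08 against -1.19, -0.62 and -0.12 (1.75, SE 0.31, adjusted p = 0.0034). Ccnd3 went with Ccnd1, at 0.85, 0.85 and 0.86 against -0.86, -0.59 and -0.93 (1.65, SE 0.24, adjusted p = 0.0012). The arrays of the populations did not overlap for any of the 3 D cyclins.

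Among growth regulators Myc was at -0.79, -1.25 and -1.49 in CD24highCD49fmed arrays and at 0.70, 0.66 and 0.85 in Thy-1-CD24medCD49fhigh arrays (-1.91, SE 0.27). Of the brakes, Cdkn1c, the inhibitor p57, was lower in CD24highCD49fmed cells (-2.26, SE 0.41), at -1.29, -1.49 and -1.20 against 1.22, -0.01 and 1.58. Cdkn1a, the inhibitor p21 that p53 induces, was at 0.06, -1.09 and -0.97 against 0.43, -1.17 and 1.04, with overlap and a difference of -0.77 (SE 0.56, adjusted p = 0.309). It became called with array weights or without Thy-1-CD24medCD49fhigh replicate 2.

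Other brakes and stress genes were higher in CD24highCD49fmed cells. Trp53inp1, a p53 target, was higher by 2.19 (SE 0.25), Tob1, an antiproliferative factor, by 1.37 (SE 0.28) and Klf6 by 1.48 (SE 0.41). Klf6, Myc and Egr2 also belong to a list of genes that respond to tissue dissociation. Of its 16 measured genes 2 were higher and 4 lower (37.5% called, against 36.7% of all rows), with a median of -0.37 and Ccn2 lowest at -4.28. The part of handling in these values was not tested. Rb1, the retinoblastoma gene itself, was higher by 0.96 (SE 0.26) and Ccng1 by 0.98 (SE 0.25), and both lost their calls after median centring. The Gadd45 genes of the growth arrest response were split, with Gadd45a (1.89, SE 0.28) and Gadd45g (1.49, SE 0.31) higher and Gadd45b (-1.57, SE 0.27) lower. Ccng2 was lower by a margin that 8 of the 12 alternative fits did not keep (-0.70, SE 0.23, adjusted p = 0.0456).

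**Figure D3:**
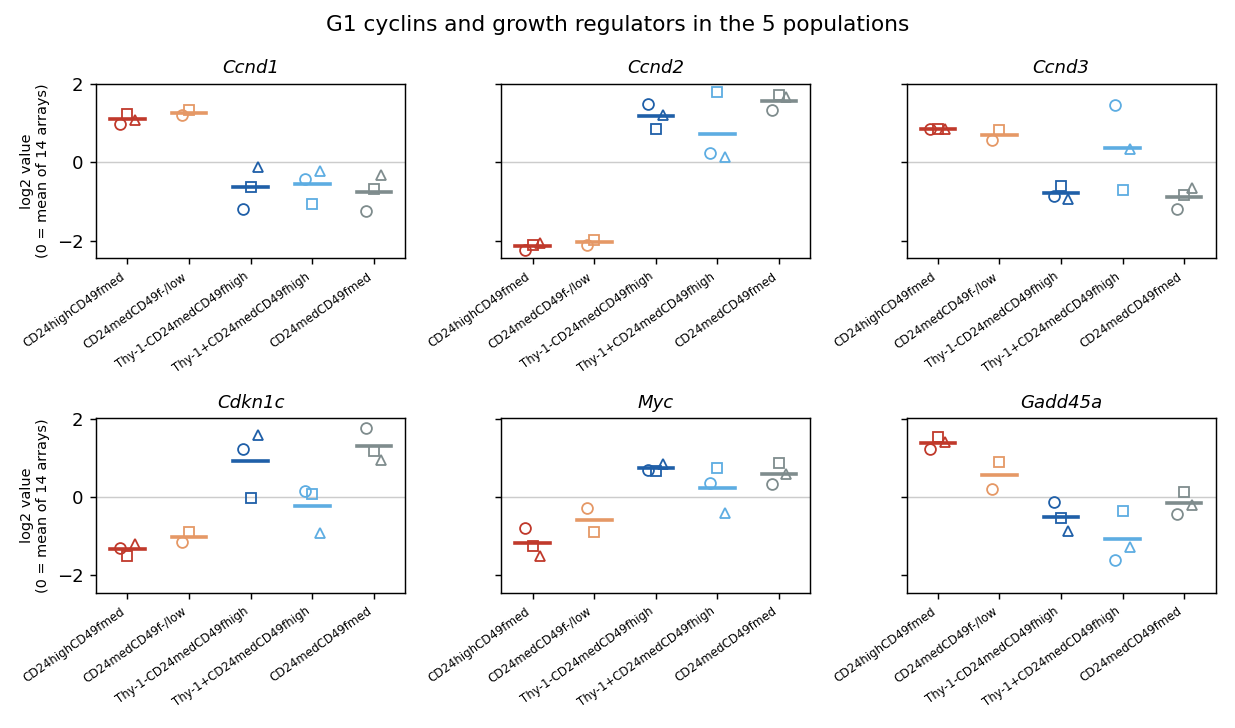
Log2 values (vertical axis, 0 is the mean of 14 arrays) of 6 genes in each array of the 5 populations, with bars at the population means and circles, squares and triangles for replicates 1, 2 and 3. Ccnd2 lies between -2.24 and -2.05 in the CD24highCD49fmed arrays and between 0.86 and 1.5 in the Thy-1-CD24medCD49fhigh arrays, Ccnd1 and Ccnd3 are the reverse, and both luminal populations lie together for Ccnd1 and Ccnd2.

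Proliferation genes were grouped in 5 lists by role, of which 112 of 229 members were in the table, which holds probe sets with a large difference somewhere in the series. The other 117 were not analysed here. Of the 112, 12 passed the test between the populations (10.7%, against 36.7% of all rows), 8 lower and 4 higher in CD24highCD49fmed cells. The differences ran from -1.47 to 1.05, and the median was -0.33, with 75 genes below 0 and 37 above. Relative to the median of all rows the shift was somewhat larger, and after centring each array the list's median was -0.56 and after quantile normalization -0.47.

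Of the 8 lower genes 6 belong to the spindle, kinetochore and condensation lists. Cdc20, which activates the anaphase-promoting complex, was at -0.27, -0.12 and 0.25 in CD24highCD49fmed arrays and at 0.74, 2.23 and 1.31 in Thy-1-CD24medCD49fhigh arrays (-1.47, SE 0.39, adjusted p = 0.0189, 2.77-fold). Nusap1, a spindle microtubule protein, was at -0.16, 0.52 and 0.68 against 1.01, 1.84 and 1.52 (-1.11, SE 0.33, adjusted p = 0.0305), and Kif23, a kinesin of the cleavage furrow, was at -0.53, 0.08 and 0.08 against 0.89, 0.76 and 1.09 (-1.04, SE 0.27, adjusted p = 0.0187). In these genes CD24highCD49fmed replicate 1 was the lowest array. Smc4, a condensin subunit, was at -0.14, -0.14 and 0.09 against 1.06, 0.84 and 0.88 (-0.99, SE 0.24, adjusted p = 0.0121).

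Cenpf, a kinetochore protein (-1.08, SE 0.30), Kif20b, a kinesin of cytokinesis (-0.95, SE 0.32), Cdc25c, the phosphatase that triggers mitotic entry (-1.15, SE 0.37), and Pola1, the catalytic subunit of DNA polymerase alpha (-1.0, SE 0.32), completed the lower genes. The higher genes were Aurka, a centrosome and spindle kinase, at 1.30, 0.90 and 1.39 against -0.39, 0.39 and 0.45 (1.05, SE 0.31, adjusted p = 0.0293), Anp32e, a histone chaperone (0.86, SE 0.24), Cdc14a, a phosphatase (0.87, SE 0.30), and Lin9, a subunit of the MuvB complex that controls cell cycle genes (0.81, SE 0.25). These 4 kept their sign but lost their calls after median centring and after quantile normalization, where 18 and 15 proliferation genes were called, each of them lower.

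The number of calls changed when single arrays were left out. Without CD24highCD49fmed replicate 1 limma called 0 of 112 (14 at an unadjusted p under 0.05) and the median was -0.11. That fit kept Thy-1-CD24medCD49fhigh replicate 1, itself most often the lowest of its group. Without that basal array instead, 15 were called and the median was -0.43. Without CD24highCD49fmed replicate 2, 1 was called (median -0.39) and without CD24highCD49fmed replicate 3, 5 were (median -0.52). The fit of all 14 arrays called 1. Calls over all rows fell as well, from 2641 to 1699, 1793 and 1716 without CD24highCD49fmed replicates 1, 2 and 3. They were 1935 with all 14 arrays and 2617 without Thy-1-CD24medCD49fhigh replicate 1. How much of the loss came from having fewer arrays was not tested. Top2a, the topoisomerase that untangles chromosomes, was at -0.20, 0.55 and 1.00 against 0.77, 1.14 and 1.18 (-0.59, SE 0.34, adjusted p = 0.208), with a 95% interval of -1.37 to 0.20, and the populations overlapped. Mki67, the standard marker of dividing cells, was at -0.70, 0.41 and 0.50 against 0.40, 1.65 and 1.09 (-0.98, SE 0.43, adjusted p = 0.106).

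By role, the medians were -0.12 in 32 genes of DNA replication and S phase, -0.59 in 13 kinases and cyclins of mitotic entry, -0.55 in 22 genes of spindle and cytokinesis, -0.51 in 21 genes of kinetochore and checkpoint and -0.26 in 24 genes of chromosome condensation and mitotic exit. The S phase list had 1 call and both signs among the helicase subunits, with Mcm2 at 0.49, 1.10 and 1.31 against -0.44, 0.18 and 0.43 (0.91, SE 0.33, adjusted p = 0.0614) and Mcm4 at -0.85 (SE 0.32, adjusted p = 0.0664). Mitotic entry was split as well. Cdk1, the kinase of mitosis, differed by 0.60 (SE 0.33, adjusted p = 0.187), whereas Ccnb2, its cyclin partner, differed by -0.79 (SE 0.31, adjusted p = 0.0744) and was called after median centring, after quantile normalization and without Thy-1-CD24medCD49fhigh replicate 1.

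A gene that missed the threshold is not thereby alike. The 95% interval lay within 1 log2 of 0, that is within 2-fold either way, for 24 of the 112 (1462 of all rows, 20.3%), and within 1.5-fold for 0. The share among the 112 was close to that of all rows, so likeness at the 2-fold limit was not particular to these lists. The median interval of the 112 was 1.52 log2 wide. Those 24 were 8 of S phase, 6 of spindle, 6 of condensation, 3 of kinetochore and 1 of mitotic entry. Ezh2, the Polycomb methyltransferase, differed by 0.01 (interval -0.64 to 0.67), Birc5, survivin of the chromosomal passenger complex, by 0.04 (-0.66 to 0.73), Chek1, the S phase checkpoint kinase, by -0.03 (-0.80 to 0.75), Kif11, the kinesin that separates spindle poles, by 0.12 (-0.54 to 0.78) and Prc1, which bundles the midzone, by -0.11 (-0.80 to 0.58). The sign of such small differences was not settled, and those of Ezh2, Birc5 and Kif11 turned negative under both rescalings. Birc5 was at 0.09, 0.54 and 0.77 in CD24highCD49fmed arrays and at 0.25, 0.16 and 0.86 in Thy-1-CD24medCD49fhigh arrays.

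**Figure D4:**
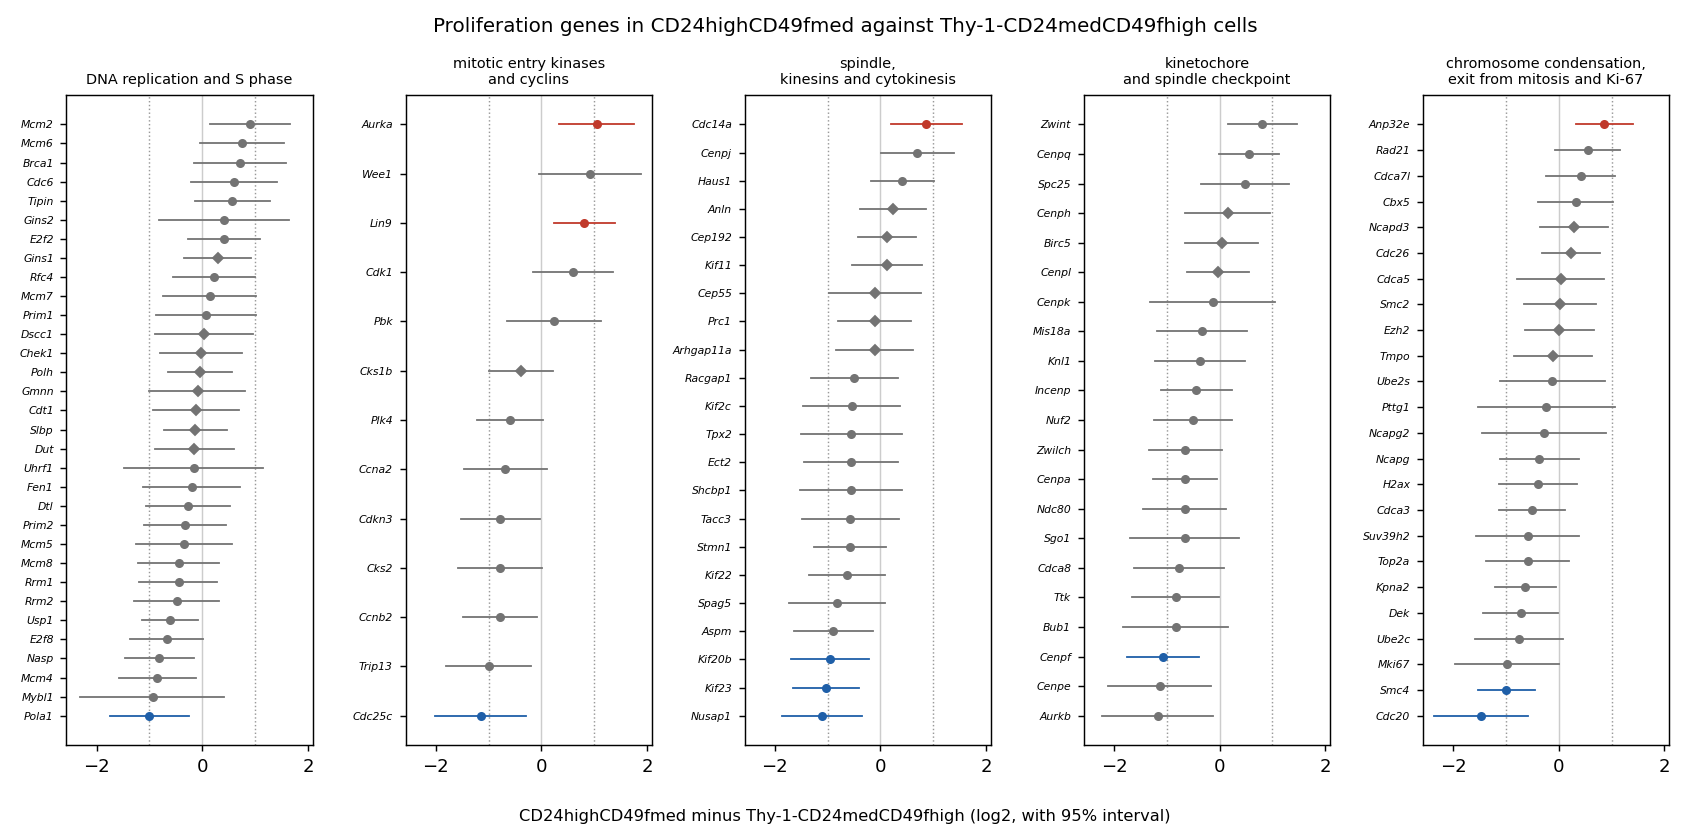
Points give the difference of each of the 112 proliferation genes between CD24highCD49fmed and Thy-1-CD24medCD49fhigh cells (log2, horizontal axis) with 95% intervals from limma, in 1 panel per role, blue for lower and red for higher calls, diamonds for the 24 genes whose interval lies between the dotted lines at -1 and 1. Most intervals cross 0, and the blue genes range from -1.47 for Cdc20 to -0.95 for Kif20b.

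Each population was then set against the rest of its own lineage, as a description, since it was chosen on such values. CD24highCD49fmed arrays were above CD24medCD49f-/low arrays by a median of 1.02 over the 112 genes (0.14 over all rows). Thy-1-CD24medCD49fhigh arrays were above the other basal arrays by 0.69 (0.16 over all rows). Among those other basal arrays, Thy-1+CD24medCD49fhigh replicates 1 and 3 had medians of -0.747 and -0.519 over all probe sets. The excess was above 0 in both lineages for 106 genes (3251 of all 7190 rows). It was at least 1 log2 in both for 21, of 31 such rows in the table. The lists differed in size of excess. In the luminal and the basal lineage the medians were 1.37 and 0.83 for spindle, 1.26 and 0.76 for kinetochore, 0.98 and 0.72 for mitotic entry, 0.91 and 0.60 for S phase and 0.77 and 0.67 for condensation. Ccnd1 and Ccnd2 lay with their lineage and not with proliferation, as the plot of G1 genes shows.

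In the luminal lineage every CD24highCD49fmed array exceeded every CD24medCD49f-/low array for 93 of the 112 genes (32.2% of all rows did so). In the basal lineage every Thy-1-CD24medCD49fhigh array exceeded all 6 other basal arrays for 13 (0.682% of all rows), and each of these 13 was among the 93 (0.403% of all rows met both). They were Nusap1, Kif23, Kif20b, Spag5, Kif22, Shcbp1 and Arhgap11a of spindle and cytokinesis, Bub1 of the checkpoint, and Cdc20, Smc4, Kpna2, Top2a and Ncapg of condensation and mitotic exit. The S phase and mitotic entry lists contributed no gene to the 13.

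Nusap1 had the largest basal excess of these, at 1.79. The other basal arrays were at -0.84, 0.03 and -0.39 in CD24medCD49fmed cells and at -1.35, 0.05 and 0.47 in Thy-1+CD24medCD49fhigh cells, all below the lowest Thy-1-CD24medCD49fhigh array at 1.01. Its luminal excess was 2.04, with the CD24medCD49f-/low arrays at -1.99 and -1.39. Top2a had a luminal excess of 2.64, from -1.90 and -2.49, and a basal excess of 1.04. Bub1, a checkpoint kinase, had 1.52 and 1.49, Spag5, astrin of the spindle, 1.60 and 1.47, and Ncapg, a condensin subunit, 2.42 and 1.30. Smc4, another condensin subunit, had a luminal excess of 0.34 and a basal excess of 1.22 that included a value of -4.03 in Thy-1+CD24medCD49fhigh replicate 1.

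The count of 13 was set by a few basal arrays. It was 34 without Thy-1-CD24medCD49fhigh replicate 1, 28 without CD24medCD49fmed replicate 2 and 20 without Thy-1+CD24medCD49fhigh replicate 3. Leaving an array out can only keep or raise this count, since fewer comparisons then have to hold. The rescalings can move it either way, and it was 6 with each array centred on its median and 10 after quantile normalization. Outside the 13, Mki67 had an excess of 2.80 in the luminal and 0.69 in the basal lineage, and Pbk, a mitotic kinase, 2.99 and 0.73 with a difference of 0.24 (interval -0.65 to 1.13).

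**Figure D5:**
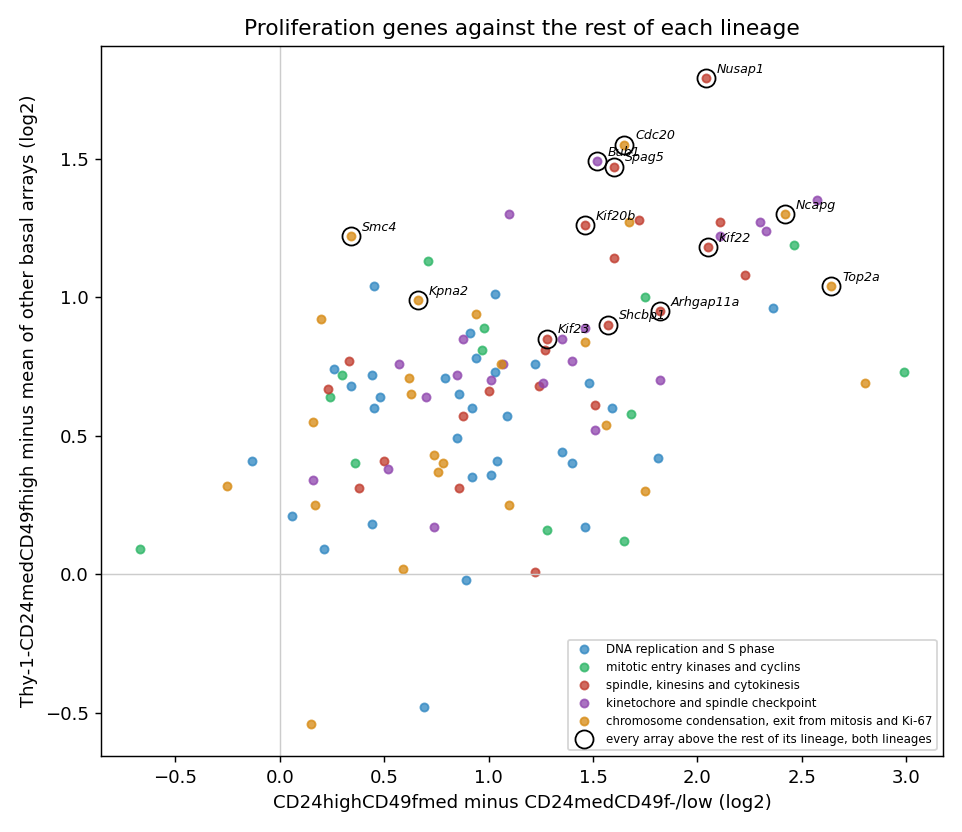
Each point is 1 proliferation gene, with its excess in CD24highCD49fmed over CD24medCD49f-/low arrays on the horizontal and in Thy-1-CD24medCD49fhigh over the mean of the other basal arrays on the vertical axis (log2), coloured by role. Rings mark the 13 genes for which every array exceeded the rest of its lineage in both, with Nusap1 the topmost at 2.04 and 1.79, and 106 of 112 points lie above 0 on both axes.

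The proximal promoters of these genes were read because G2 and mitotic genes are known to share a pair of elements, the cell cycle genes homology region (CHR), bound by the MuvB complex of which Lin9 is a part, and the CCAAT box, bound by NF-Y. RefSeq windows of GRCm38.p6, from 250 bases before to 50 after a start site, were found for 87 of the 112 genes and 11 of the 13. The letters TTTGAA or TTCGAA on either strand were counted as a CHR match and CCAAT on either strand as a CCAAT match, and adjoining matches of both kinds can share a T. A CHR match was held by 10 of the 11, by 60.9% of the 87 and by 21.7% of 27025 genes with a window. A CCAAT match was held by 9 of the 11, by 67.8% of the 87 and by 41.1% of all. Both were held by 9 of the 11, 42.5% of the 87 and 8.61% of all. The roles differed in CHR matches, at 82.4% of 17 spindle genes, 76.2% of 21 condensation genes, 75% of 8 mitotic entry genes and 61.1% of 18 kinetochore genes against 26.1% of 23 S phase genes. A match is a description of letters and not a bound site. The 120 bases before the start of 4 of the 13 genes are shown, 5′ to 3′ on the gene's strand, with CHR and CCAAT matches of either strand in capitals, because they hold both elements in these bases, and that of Nusap1 is shown as one that holds neither: Top2a (chr11:99024190-99024309, minus strand), Cdc20 (chr4:118437344-118437463, minus strand), Kif22 (chr7:127042421-127042540, minus strand), Arhgap11a (chr2:113848662-113848781, minus strand) and Nusap1 (chr2:119618178-119618297, plus strand).
Top2a: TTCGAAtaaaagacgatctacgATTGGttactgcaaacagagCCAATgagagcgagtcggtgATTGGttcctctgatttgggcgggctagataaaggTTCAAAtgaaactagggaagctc
Cdc20: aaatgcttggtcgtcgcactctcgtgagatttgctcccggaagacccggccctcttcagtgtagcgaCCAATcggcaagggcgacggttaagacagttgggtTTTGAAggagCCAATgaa
Kif22: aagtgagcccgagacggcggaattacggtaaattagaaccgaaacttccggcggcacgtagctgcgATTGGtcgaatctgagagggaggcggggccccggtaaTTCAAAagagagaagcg
Arhgap11a: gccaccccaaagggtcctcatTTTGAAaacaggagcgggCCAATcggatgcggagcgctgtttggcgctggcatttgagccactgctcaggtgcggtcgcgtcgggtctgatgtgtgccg
Nusap1: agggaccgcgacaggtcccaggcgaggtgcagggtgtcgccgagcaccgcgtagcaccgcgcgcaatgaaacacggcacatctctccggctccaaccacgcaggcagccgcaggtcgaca
In these 120 bases 5 of the 11 genes had no CHR match, namely Bub1, Kif20b, Kif23, Nusap1 and Spag5. The matches of Bub1, Kif20b, Kif23 and Spag5 lay after the start, and Nusap1 had neither element in the whole window. Top2a holds 2 CHR matches and 3 CCAAT boxes in these bases and Cdc20 holds 1 CHR match and 2 CCAAT boxes. Kpna2 also holds both elements in its 120 bases, 1 of each, and is not shown. Between the populations Top2a differed by -0.59 and Arhgap11a, a cytokinesis GTPase activator, by -0.11 (interval -0.84 to 0.62), while Cdc20 differed by -1.47 and Kif22, a chromokinesin, by -0.63 (SE 0.32, adjusted p = 0.149).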

How the data were processed

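RNA of sorted cells was extracted with Trizol, labelled with the two-cycle Affymetrix kit and hybridised to 14 arrays, per the labels. MIDAS was used by the authors for RMA (robust multichip average) normalization. In Cluster 3.0 they then dropped dim probe sets and those never 4-fold apart in any pair of arrays, and set each mean to 0, so that the deposited values are log2 and hold no absolute level. The submitters' processing notes name RMA and GCRMA, with versions not given in the sources used here. Of 9645 probe sets deposited as log2 values, 8499 carried a single symbol and were averaged into 6044 genes, and 199 with several symbols and 947 with none stayed as rows of their own. Signal over background was not used here, and the number of arrays limits the precision.

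The populations were compared by limma 3.58.1 in R 4.3.3 (lmFit and eBayes, two-sided, 6 arrays, 7190 rows, Benjamini-Hochberg adjusted p under 0.05). Intervals at 95% came from the moderated t. Summaries and figures used Python 3.11.15, pandas 2.3.3, numpy 2.4.6 and matplotlib 3.10.9. The test was tried on simulated data. The populations, gene lists, named genes and tests were chosen with earlier results of these data known. Named genes were Top2a, Nusap1, Lgr5, Elf5, lineage markers, genes the study names, the 10 largest rises and falls without overlap, up to 5 called members per list and direction, and of each proliferation list every called member, up to 5 within 1 log2 and up to 5 highest in both lineages. Mki67, Mcm2, Cdk1, Kif22, Shcbp1, Kpna2, Col1a1, Pecam1, Pdgfra, Aldh1a3, Csn2, Lalba, Fzd1, Fzd7, Egfr, Fgf2 and Met were added after their values were seen. Pgr, Hspa1b, Hba-a2, Parpbp, Xpc, Slc2a10 and Sypl were also named outside these rules. Alternatives were all 14 arrays, a block on replicate numbers, arrays weighted by quality, single probe sets, median centring, quantile normalization, a log2 threshold of 1, rank products (100 permutations, p under 0.01) and leaving out each array.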

Additional observations from a re-analysis of the deposited data

How the results depend on the processing

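The comparison of the populations called 2641 rows, and 709 by rank products (300 higher and 409 lower). Without single arrays it called 1699 to 2950, with 1699 and 1716 without CD24highCD49fmed replicates 1 and 3. Basal genes lower (83) ranged from 75 to 91 and luminal genes higher (75) from 66 to 79 when arrays were left out. Of 112 proliferation genes, 12 were called. The count was 1 with all 14 arrays in 1 fit, 19 with the replicate block (4 higher and 15 lower), 7 with a log2 difference of 1 or more, and 0 to 15 without single arrays. Genes with an interval within 1 log2 (24) were 6 with all 14 arrays and 9 to 35 without single arrays, and 0 lay within 1.5-fold. The basal excess of the proliferation genes (0.69) was 0.52 with each array centred on its median, 0.52 against CD24medCD49fmed arrays alone and 0.54 without Thy-1+CD24medCD49fhigh replicates 1 and 3, the last pair of alternatives chosen after seeing the data. It was 0.56 to 0.83 without single arrays, and the luminal excess (1.02) was 0.86 to 1.25. The 13 genes above the rest of both lineages became 6 after median centring and 10 after quantile normalization. They became 22 under each of the alternatives chosen after seeing the data, and 13 to 34 without single arrays. The alternatives that leave arrays out cannot lower this count, so they do not test whether 13 is too high. The cause was not tested.

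Replicate numbers were not taken to pair the arrays in the main fit. Over all rows same-numbered arrays deviated together only weakly, at correlations of 0.225, 0.203 and 0.047. Some genes did follow the number. Hspa1b, a heat shock gene, was at 0.62 to 1.51 in replicate 1 of all 5 populations and below 0 in every other array. The median of the proliferation genes was also lowest in replicate 1 of each population. A shift shared by same-numbered arrays is thus not removed in the main fit. With the number as a replicate block 2920 rows were called. Of 188 named genes 22 changed sign in 1 or more of the 12 alternative fits, and 0 of these were called by limma as reported. Between 155 and 184 of them stayed on their side of the threshold, the fewest without CD24highCD49fmed replicate 1.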

Other observations

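Of the 29 rows for which every array exceeded the rest of its lineage in both populations, 26 were named genes, and 13 of these were in none of the proliferation lists. They are given as values, since the populations were picked for such an excess in cell cycle genes. Parpbp, a regulator of homologous recombination, had an excess of 1.01 in the luminal and 0.71 in the basal lineage, and Xpc, which detects DNA damage for nucleotide excision repair, had 0.56 and 1.15. Slc2a10, a facilitative glucose transporter gene, had 0.65 and 1.16 and was lower in CD24highCD49fmed than in Thy-1-CD24medCD49fhigh cells (-1.62, SE 0.25, adjusted p = 0.00156 by limma). Sypl, a synaptophysin-like vesicle protein gene, had 0.77 and 0.51 and was higher in CD24highCD49fmed cells (1.28, SE 0.25, adjusted p = 0.00532).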
